A study of Homo sapiens with 4 samples.

Results

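Glycolysis turns glucose into pyruvate and lactate, and 10 human genes that stand at its entry, its control points and its exit were examined for N6-methyladenosine (m6A) peaks. They were SLC2A1, HK1, HK2, PFKFB3, PFKFB4, PFKP, ENO1, PKM, LDHA and PDK1, out of 20046 protein-coding genes in the annotation. Their peaks were those whose summit, the position of highest enrichment, fell inside the gene body on hg38. This gave 17 of 24607 peaks in m6A replicate 1 and 8 of 19318 peaks in m6A replicate 2.

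The peaks came from meRIP-seq in OE-19, an established cell line of adenocarcinoma of the esophagogastric junction, in which RNA fragments bound by an anti-m6A antibody are sequenced. The series held 4 samples, namely 2 replicates of the m6A immunoprecipitation and 2 of the input RNA without antibody, all from OE-19 cells in RPMI1640 medium with serum, with no genetic change or drug named in the labels. Peaks had been called for each m6A replicate on its own, and the input samples were not analysed here as peaks. The labels do not say whether the replicates came from separate cultures, and a single line in a single state allows no comparison between conditions.

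Glucose enters cells through carriers such as SLC2A1 and is trapped as glucose 6-phosphate by hexokinases. Phosphofructokinase then commits the sugar to glycolysis and is stimulated by fructose 2,6-bisphosphate, which the PFKFB enzymes make and degrade. Lactate dehydrogenase recycles the cofactor that the pathway needs, while PDK1 phosphorylates and restrains pyruvate dehydrogenase and so limits entry of pyruvate into mitochondria. Many cancers run this pathway at a high rate even with oxygen present. m6A is laid down on mRNA mainly at a short motif with GGAC as its commonest core, and it is known to concentrate in long exons and near stop codons, where reader proteins can bind it and alter mRNA stability or translation.

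Exonic m6A peaks were found in both replicates for 4 of the 10 genes, the glucose transporter SLC2A1, the hexokinase HK2 and the bifunctional enzymes PFKFB3 and PFKFB4. Across all protein-coding genes the share with such a peak in each list was 33.4% (6686 of 20046). PFKP had exonic peaks in replicate 1 only, which brought the count to 5 of 10 genes in either replicate, where 43.1% of all protein-coding genes had one. The 5 genes HK1, ENO1, PKM, LDHA and PDK1 had no peak anywhere in the gene body in either list. The counts stood near the background for all genes, and the description therefore turns to which genes carried the peaks and where. When only summits in an exon of 1 gene were counted, the same 4 of the 10 genes had a peak in both replicates. By that rule 29.8% of all protein-coding genes (5967 of 20046) had one.

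**Figure D1:**
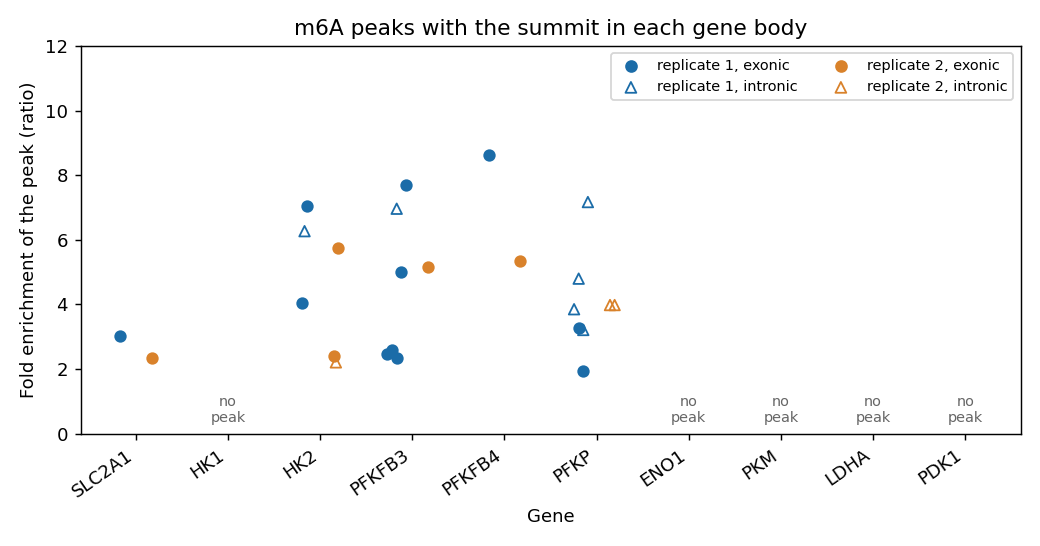
Fold enrichment of every peak with its summit in the body of the 10 genes, 1 column per gene, with filled circles for exonic and open triangles for intronic summits in replicates 1 and 2. PFKFB4 had the highest value, 8.63 in replicate 1, and 5 genes had no peak.

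To see the difference by role, the genes were divided into 3 enzymes of the lower pathway that are generally abundant, ENO1, PKM and LDHA, and 7 transporters, gatekeeping enzymes and regulators. No abundant enzyme had a peak (0 of 3), and 4 of the 7 regulated genes carried exonic peaks in both lists and 5 of 7 in either, beside 33.4% and 43.1% of all protein-coding genes. With 3 and 7 genes these counts do not set the classes apart from all genes or from each other. Abundance here is textbook knowledge of these enzymes, as no RNA level was measured in these lists. A gene without a peak cannot be told apart from a gene whose RNA was too scarce to give one, and the lists hold no read numbers to judge it by.

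SLC2A1, also known as GLUT1, is the basal glucose carrier of most cells. The gene spans chr1:42925353-42958893 on the minus strand (ENSG00000117394.24), and its only peak lay in exon 10 of 10, the last exon. In replicate 1 the peak covered chr1:42926556-42927140 with a fold enrichment of 3.03 over the peak caller's background and a −log10 q of 14.8, and its summit lay 72 nt into the mRNA past the stop codon, a distance counted throughout from the first of its bases. In replicate 2 it covered chr1:42926576-42926780 with a fold enrichment of 2.33 and a −log10 q of 7.42, and its summit lay at 402 nt, in the 3′ UTR. These were the weakest last-exon peaks among the genes with peaks in both replicates, higher than only 15.3% and 6.86% of all exonic peaks of their lists. The peaks overlapped by 205 bp, yet the summits were 330 bp apart, the largest gap among the exonic pairs of these genes. The GGAC motifs at these summits are printed at 25 bases each on the strand of the gene with GGAC in capitals, because the summits of the replicates stood beside different sites. No GGAC lay within 50 nt of the replicate 1 summit, and the nearest was 90 nt downstream of it. The broader motif DRACH had 3 matches in that window. D stands for A, G or T, R for A or G, and H for A, C or T. DRACH matches were not counted over all summits. Both GGAC sites near the replicate 2 summit were within 13 nt of it.
SLC2A1 at 162 nt from the stop codon, chr1:42926869-42926893: agaatattcaGGACttaacggctcc
SLC2A1 at 389 nt, chr1:42926642-42926666: ctgtagggctGGACctatgtcctaa
SLC2A1 at 404 nt, chr1:42926627-42926651: tatgtcctaaGGACacactaatcga

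HK1 and HK2 are close relatives that both hold glucose in the cell, HK1 being the broadly expressed form and HK2 the form raised in many tumors. HK2 (ENSG00000159399.10, chr2:74834127-74893359, plus strand) had 3 peaks in each replicate, and each was shared between the replicates by overlap. HK1 (ENSG00000156515.25, chr10:69269984-69401884, plus strand) had none.

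The strongest HK2 peak sat on the stop codon in exon 18 of 18. It covered chr2:74890814-74891229 in replicate 1 and chr2:74890826-74891219 in replicate 2, an overlap of 394 bp. The fold enrichments were 7.04 and 5.76, above 70.1% and 65.4% of the exonic peaks in the respective lists, and −log10 q was 49.6 and 38.0. The summits lay 3 nt apart, at 3 and 0 nt from the stop codon, so the replicates placed this peak at the same point. A weaker peak covered the 5′ UTR in exon 1, enriched 4.06-fold in replicate 1 (chr2:74834080-74834813) and 2.39-fold in replicate 2 (chr2:74834151-74834599). Its summits lay at −186 and −96 nt from the start codon. The third peak lay in intron 1 just beyond that exon and was enriched 6.27-fold in replicate 1 (chr2:74834965-74835179) and 2.21-fold in replicate 2 (chr2:74834795-74835182). The intronic pair therefore differed most between the replicates, by 1.51 on the log2 scale, against 0.29 for the pair at the stop codon. The intronic summits also lay 279 bp apart. In replicate 2 this peak had a q of 0.0242, close to the limit of 0.05, and it also overlapped the replicate 1 peak of exon 1.

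The stop codon peak of HK2 contained 5 GGAC motifs, at −110, −7, 23, 118 and 128 nt from the stop codon, measured at the A of the motif. The coding sequences of HK1 and HK2 have the same length, 2751 nt, and carry the same base at 73.0% of positions when laid side by side without gaps. The HK2 sites upstream of the stop codon in the 200 nt window are shown with the HK1 bases at the same distance. This place was chosen because HK2 had a peak at its stop codon and HK1 had none. The HK2 site at 23 nt is shown alone, and those at 118 and 128 nt are not printed. HK1 had a further GGAC at −170 nt, which is not printed either. Capitals mark the 4 bases at the place of the HK2 motif, and HK1 holds GGAC at the same place at −197 and −165 nt, outside the HK2 peak, but not at −110 and −7 nt, inside it.
HK2 at −197 nt, chr2:74889412-74889436: accgtgggctGGACgctctcaaagt
HK1 at −197 nt, chr10:69398762-69398786: acagaggactGGACcgtctgaatgt
HK2 at −165 nt, chr2:74889444-74889468: ggtgtggatgGGACcctctacaagc
HK1 at −165 nt, chr10:69398794-69398818: ggagtggacgGGACactctacaagc
HK2 at −110 nt, chr2:74890817-74890841: agacagtgaaGGACctggctccgaa
HK1 at −110 nt, chr10:69401011-69401035: agacggtgaaGGAActgtcaccaaa
HK2 at −7 nt, chr2:74890920-74890944: ccgtgaggctGGACagcgatagaac
HK1 at −7 nt, chr10:69401114-69401138: acgcacagagGCAAgcagctaagag
HK2 at 23 nt, chr2:74890950-74890974: aaatcggaagGGACttcctctttct

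Within 200 nt of the stop codon HK2 had 7 GGAC motifs and HK1 had 3. Over the whole mRNA the numbers were 37 in 5626 nt for HK2 and 24 in 3602 nt for HK1. The 3′ UTR was 2418 nt in HK2 and 747 nt in HK1, with 8 and 1 GGAC motifs, respectively. Just upstream of HK1, the neighbouring hexokinase gene HKDC1 had exonic peaks in both replicates, which reached 9.47 in replicate 1 and 4.37 in replicate 2. These summits lay 2789 and 2775 bp before the HK1 gene start and belong to HKDC1 exons, so a peak near HK1 is not a peak of HK1.

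PFKFB3 and PFKFB4 set the level of fructose 2,6-bisphosphate, and both are known targets of the hypoxia response. PFKFB3 (ENSG00000170525.21, chr10:6144934-6254644, plus strand) had the largest number of exonic peaks of the 10 genes in replicate 1, with 5 exonic and 1 intronic peaks, but 1 peak in replicate 2. The shared peak covered the stop codon and the proximal 3′ UTR in exon 15 of 15. It ran over chr10:6232857-6234109 in replicate 1 (1253 bp) and chr10:6232885-6234110 in replicate 2 (1226 bp), wider than 94.3% and 93.6% of exonic peaks. Its fold enrichment was 7.70 and 5.15, and its −log10 q was 54.9 and 38.9, the highest among the 10 genes in each list. The summits were 5 bp apart, at 542 and 537 nt from the stop codon. The wide peak held 8 GGAC motifs in each replicate, and the one nearest to both summits, 16 and 11 nt upstream, is shown for that reason.
PFKFB3 at 526 nt from the stop codon, chr10:6233454-6233478: gaacgaacttGGACaggtgttgggt

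The other 5 PFKFB3 peaks had no counterpart in replicate 2. Of these, the peak in exon 14 (chr10:6226263-6226443), with its summit at −90 nt from the stop codon, had a fold enrichment of 4.997. An intronic peak beyond exon 12 (chr10:6223874-6224131) reached 6.96. The peaks in the 5′ UTR of exon 1 (chr10:6202988-6203295), in coding exon 8 (chr10:6220679-6220918) and in coding exon 10 (chr10:6221494-6221790) had fold enrichments of 2.45, 2.59 and 2.35, all below the lower quartile of 3.63 for exonic peaks in replicate 1.

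PFKFB4 (ENSG00000114268.12, chr3:48517684-48562015, minus strand) had a single peak per replicate, in exon 14 of 14. It covered chr3:48519282-48519718 in replicate 1, where it was enriched 8.63-fold, the highest value of the 10 genes, and chr3:48519340-48519620 in replicate 2 with 5.35. These values exceeded 81.3% and 59.3% of exonic peaks. The −log10 q of 12.9 and 5.60 was far lower than at HK2 and PFKFB3, so the fold enrichment and the q value ranked these genes differently. The summits lay 173 and 223 nt from the stop codon, and no GGAC lay within 50 nt of either one. The broader motif DRACH had 3 matches within 50 nt of each summit. The only GGAC inside the peak was 229 and 179 nt downstream of the summits.
PFKFB4 at 402 nt from the stop codon, chr3:48519335-48519359: tgcccagcatGGACctggtgactct

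**Figure D2:**
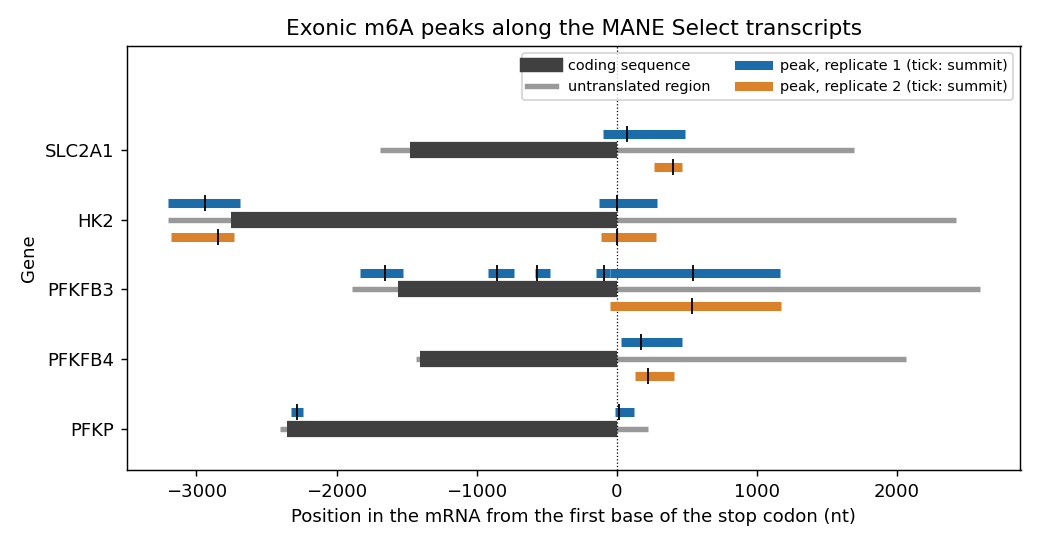
Exonic peaks drawn along the MANE Select transcript of the 5 genes that had any, with position in nt relative to the stop codon, thick bars for coding sequence, coloured bars for peaks and ticks for summits. The shared peaks of SLC2A1, PFKFB3, PFKFB4 and 1 of the 2 of HK2 lie in the last exon, and the other HK2 pair lies at the 5′ end.

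PFKP encodes the platelet form of phosphofructokinase, the committed step of glycolysis. The gene (ENSG00000067057.19, chr10:3066333-3137718, plus strand) had 6 peaks in replicate 1 and 2 in replicate 2, and most of them were intronic. The 2 exonic peaks were weak and seen only in replicate 1, enriched 3.26-fold in coding exon 1 (chr10:3067625-3067765) and 1.93-fold at the stop codon in exon 22 of 22 (chr10:3136567-3136703). The latter was higher than only 1.69% of exonic peaks in its list, and its summit lay 15 nt from the stop codon. It also fell within the body of the gene ENSG00000278419, and the lists carry no strand to separate them. The GGAC 24 nt downstream of this summit is shown because the site stands at the same kind of place as in HK2.
PFKP at 39 nt from the stop codon, chr10:3136604-3136628: cagccaccgtGGACtgtctgttttt

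Intron 16 of PFKP held the peaks that both replicates shared. In replicate 1 they covered chr10:3122332-3122663 and chr10:3123741-3125060, with fold enrichments of 4.80 and 7.17. In replicate 2 they covered chr10:3122380-3122671 and chr10:3123688-3123982, and both had a fold enrichment of 3.98. The remaining intronic peaks were in replicate 1 only, in intron 1 (chr10:3069074-3069538) at 3.85 and in intron 16 (chr10:3123326-3123510) at 3.21. PFKP was thus detected in both lists by intronic sequence alone. Counting a summit anywhere in the gene body raised the number of genes with a peak in both replicates from 4 to 5. The share of all protein-coding genes rose as well, from 33.4% to 37.7%.

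ENO1 (enolase 1), PKM (pyruvate kinase) and LDHA (lactate dehydrogenase A) carry out late steps of the pathway, and neither list had a peak inside these genes or within 5000 bp of them. ENO1 lies at chr1:8861000-8879190, PKM at chr15:72199029-72231819 and LDHA at chr11:18394560-18408425. ENO1 had 4 GGAC motifs in its mRNA of 1781 nt and none within 200 nt of the stop codon. LDHA had 6 in 2241 nt, of which 2 lay in that window. PKM differed from both, with 17 in 2305 nt, of which 6 were near the stop codon. PDK1 (chr2:172555373-172608669), the kinase that restrains pyruvate dehydrogenase, had no peak although its mRNA of 14072 nt had 32 GGAC motifs, 24 of them in the 3′ UTR. The GGAC nearest to the stop codon is given for the 3 genes without peaks that had one in this window and are not shown above. They carry the same 4 letters as the sites under the HK2 and PFKFB3 peaks.
PKM at 6 nt from the stop codon, chr15:72199634-72199658: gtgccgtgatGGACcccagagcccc
LDHA at −109 nt, chr11:18407158-18407182: ttgcattttgGGACagaatggaatc
PDK1 at 14 nt, chr2:172595969-172595993: gacacacttgGGACatcggaaaatc

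Peaks in copies of these genes elsewhere in the genome were counted as well. The annotation holds 17 pseudogenes named after the 10 genes, 6 of them for LDHA, 5 for PKM, 4 for ENO1 and 1 each for HK2 and PDK1, and 0 peaks fell in them in either replicate. No count over all pseudogenes is given, so this 0 cannot be set against a background. How reads that match several copies were handled is not given in the sources used here.

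The 10 genes were next compared with all exonic peaks. Of their exonic peaks, 5 of 11 in replicate 1 and 5 of 5 in replicate 2 overlapped a peak of the other replicate by at least 1 bp, where 60.6% and 95.9% of all exonic peaks in protein-coding genes did. The shared peaks of replicate 1 had a median fold enrichment of 7.04 and the unshared ones 2.52. All exonic peaks of the 10 genes had a median of 3.26 in replicate 1 (range 1.93 to 8.63) and 5.15 in replicate 2 (2.33 to 5.76), while all exonic peaks in protein-coding genes had medians of 5.21 and 4.72. The lower median in replicate 1 came with the unshared peaks of PFKFB3 and PFKP.

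In each of the 5 exonic pairs the fold enrichment was higher in replicate 1. The differences were 0.38 for SLC2A1, 0.29 and 0.76 for the HK2 stop codon and 5′ UTR peaks, 0.58 for PFKFB3 and 0.69 for PFKFB4, on the log2 scale. This tilt was general, since replicate 1 was higher in 80.6% of 10829 exonic pairs of the lists with a median difference of 0.44 (quartiles 0.10 and 0.77). The geometric mean over the replicates of the best exonic fold enrichment was 6.80 for PFKFB4, 6.37 for HK2, 6.29 for PFKFB3 and 2.66 for SLC2A1. The first 3 differed from each other by less than the gap between the replicates of each, so their order is not resolved, whereas both SLC2A1 values lay below all last-exon values of these 3. Over the 6686 genes with a peak in both lists the median was 6.70 (quartiles 4.86 and 9.003), so SLC2A1 fell under the lower quartile and the other 3 near the middle.

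**Figure D3:**
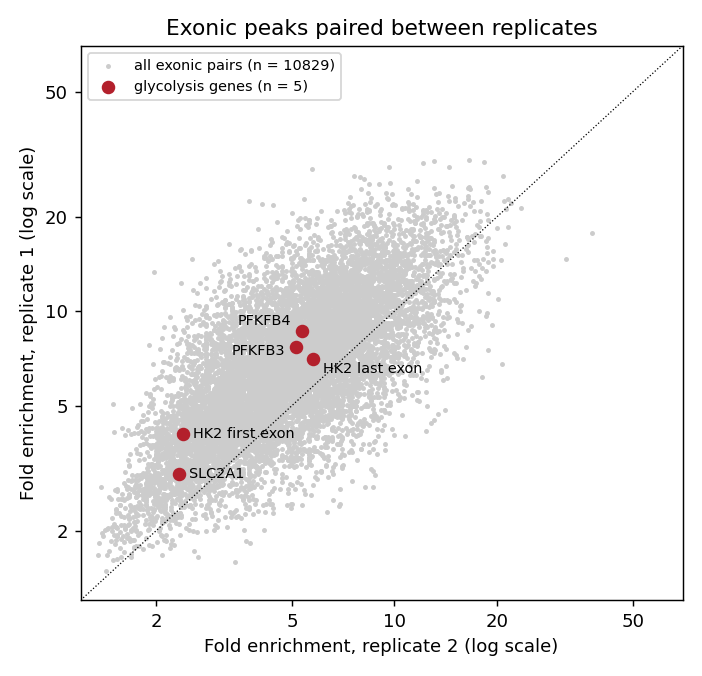
Fold enrichment in replicate 1 against replicate 2 on log axes for 10829 exonic peak pairs (grey) and the 5 pairs in the glycolysis genes (red), with the line of equal values. All 5 lie above the line, as did 80.6% of all pairs.

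For position and motif, 5 of 11 summits in replicate 1 and 1 of 5 in replicate 2 lay within 200 nt of the stop codon, where 24.7% and 27.3% of all exonic summits did. The last exon held 5 of 11 and 4 of 5 summits, against 51.6% and 60.5% of all. The summits of SLC2A1 and PFKFB4 fell inside the stop codon window in replicate 1 and beyond it in replicate 2, so the count in that window depended on the replicate while the exon did not. GGAC lay within 50 nt of the summit on the strand of the gene for 6 of 11 and 4 of 5 exonic peaks, where 49.8% and 51.8% of all exonic summits had it. A match to 4 letters is a description of the sequence and does not locate the methylated base.

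The 4 genes with peaks in both replicates had last exons of 1889 nt (SLC2A1), 2563 nt (HK2), 2638 nt (PFKFB3) and 2123 nt (PFKFB4). The last exon was 892 nt in HK1, 728 nt in PKM, 430 nt in ENO1, 1309 nt in LDHA and 353 nt in PFKP. PDK1 broke this order, with a last exon of 12841 nt and no peak. With a limit of 1500 nt, which was chosen after the values were seen, 4 of 5 genes above it and 0 of 5 below it had a peak in both lists. Among all protein-coding genes 44.5% of 9535 genes above that limit and 23.3% of 10498 below it had one. The median number of GGAC per mRNA was 27.5 for the 4 genes with peaks in both lists and 17 for the 5 without peaks, and the ranges overlapped, from 12 in SLC2A1 to 37 in HK2 and from 4 in ENO1 to 32 in PDK1. Per kilobase the medians were 6.52 and 2.68, and the ranges overlapped here too. They ran from 3.55 in SLC2A1 to 7.43 in PFKFB4 and from 2.25 in ENO1 to 7.38 in PKM. Among all protein-coding genes the median per kilobase was 4.01 with an exonic peak in both lists and 3.56 with no exonic peak. No limit was chosen for the GGAC number or its density, so neither is ranked against exon length. The median was 26 GGAC per mRNA for the 7 regulated genes and 6 for the 3 abundant enzymes, at median mRNA lengths of 3602 and 2241 nt. All protein-coding genes had a median of 11 and a median length of 2885 nt. Within the abundant enzymes the density per kilobase was 2.25 in ENO1, 2.68 in LDHA and 7.38 in PKM.

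**Figure D4:**
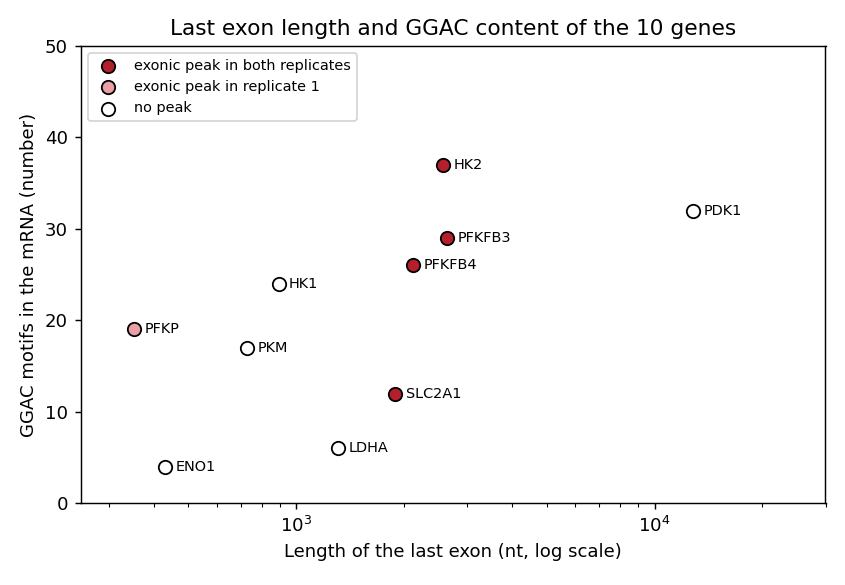
Length of the last exon (nt, log axis) against the number of GGAC motifs in the mRNA for the 10 genes, filled dark red for an exonic peak in both replicates, pink for replicate 1 only and white for no peak. The 4 dark red genes have last exons of 1889 to 2638 nt, and PDK1 at 12841 nt has no peak.

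The rest of the pathway was examined in 5 further lists of 65 genes together. Of these genes 18 carried exonic peaks in both replicates, 8 in replicate 1 only, 0 in replicate 2 only and 39 in neither. The 18 of 65 stood beside 33.4% of all protein-coding genes. Replicate 1 had such a peak for 26 of the 65, beside 42.4% of all, and replicate 2 for 18, beside 34.1% of all. When summits shared with an exon of another gene were left out, 14 of the 65 genes had a peak in both lists, beside 29.8% of all. Among 21 other glycolytic enzymes, 3 had a peak in both replicates. Only the hexokinase HKDC1 kept one in both when summits shared with another gene's exon were left out. That removed 1 of its 3 exonic summits in replicate 1, which also lay in an exon of ENSG00000231748. The other 2 genes were the sperm-type enzyme GAPDHS, at 7.73 and 6.61, and the liver and red cell pyruvate kinase PKLR, at 3.21 and 3.20. The GAPDHS summits also lay in an exon of TMEM147-AS1, and the PKLR summits in an exon of HCN3. No exonic peak was listed for GAPDH, ALDOA, PGK1 or TPI1, the housekeeping enzymes of the middle pathway, as for ENO1, PKM and LDHA. Intronic peaks are reported for the 10 genes alone. The 65 pseudogenes named after GAPDH held 2 peaks in replicate 1 and 0 in replicate 2, again with no count over all pseudogenes. Of the other phosphofructokinases, PFKL had an exonic peak in replicate 1 only, at 1.95, like PFKP, and PFKM had none.

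Of 15 other regulators, 6 had a peak in both lists, a share close to the 33.4% of all genes. The pyruvate dehydrogenase phosphatases PDP2 and PDP1, which oppose PDK1, had paired peaks in replicates 1 and 2. The PDP2 pair was enriched 12.1-fold and 13.8-fold, and the PDP1 pairs 11.49-fold and 6.53-fold, and 9.56-fold and 6.73-fold. PDK3, a relative of PDK1, had 12.4 and 3.09, at summits outside its MANE Select transcript. The glucose-responsive transcription factor MLXIP had 7.04 and 6.41. Of these 4 genes only PDP2 had the higher value in replicate 2. None of the 5 subunit genes of the pyruvate dehydrogenase complex, PDHA1, PDHB, PDHX, DLAT and DLD, had an exonic peak, beside 33.4% of all genes with one in both lists. The other kinases of the complex varied. PDK3, given above, had exonic peaks in both lists, while PDK4, like PDK1, had none. PDK2 had exonic peaks in replicate 1 only, where the summits also lay in an exon of SAMD14.

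Among 17 sugar and lactate transporters, 6 had a peak in both replicates, close to the 33.4% of all genes. SLC2A10 had the highest geometric mean of the 65 genes, at 16.5 in replicate 1 and 10.6 in replicate 2. SLC2A6 had 13.5 and 6.61, and SLC2A8 had 7.26 and 5.35. The lactate carrier SLC16A1 had 2 paired peaks, the first at 10.3 and 3.66 and the other at 5.23 and 7.04, so its best values came from different peaks. These carriers are named for their high values, and SLC2A1 at 3.03 and 2.33 is not ranked against them. Of 7 gluconeogenesis enzymes, 3 had a peak in both lists, namely PCK2 (3.33 and 4.34), G6PC3 (4.10 and 4.08) and PC, whose paired peak had 2.99 and 2.72. PC had a further peak at 7.58 in replicate 1, outside its MANE Select transcript, and 1 of its 2 summits in that list also lay in an exon of LRFN4.

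**Figure D5:**
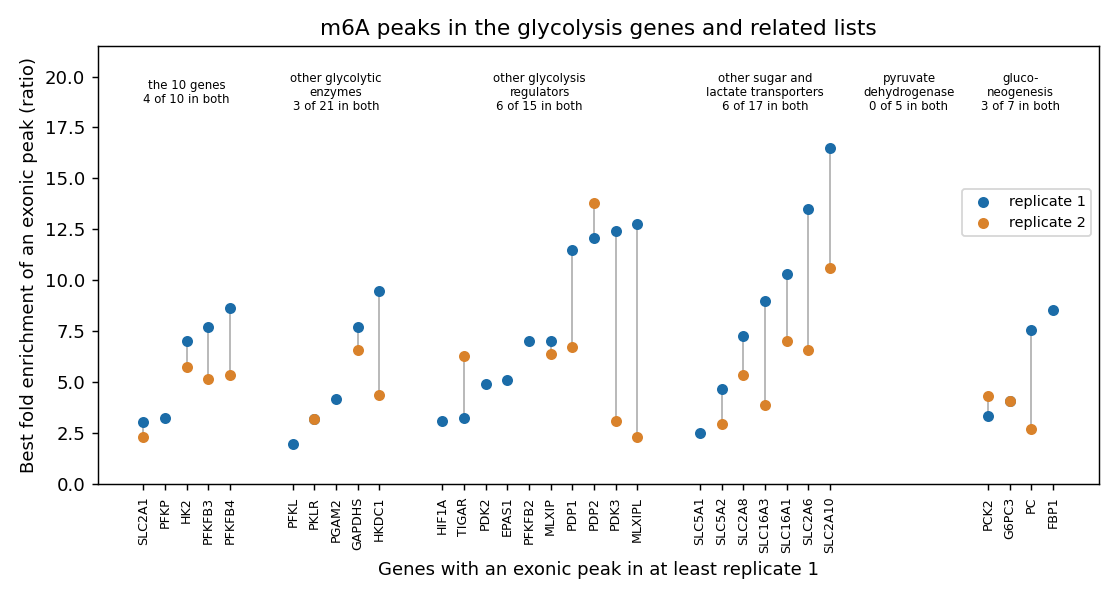
Best exonic fold enrichment per gene in replicate 1 (blue) and replicate 2 (orange), joined by a line though not always from the same peak, for the genes with an exonic peak among the 10 genes and 5 related lists, with the number of genes in both lists above each group. SLC2A10 reached 16.5, and the pyruvate dehydrogenase complex had no gene with an exonic peak.

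The lists allow no check of cell identity, because a peak is not an expression level. Of 7 epithelial markers CDH1 (4.47 and 3.85) and CLDN4 (2.84 and 2.39) had exonic peaks in both replicates, beside 33.4% of all protein-coding genes. EPCAM, KRT8, KRT18, KRT19 and ERBB2 had none in either list. Of 8 blood, endothelial and fibroblast markers 0 had them in both, with COL1A1 at 3.11 in replicate 1 only.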

How the data were processed

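OE-19 cells were assayed by meRIP-seq with 2 m6A IP samples and 2 input samples, grouped by the labels. The study's methods describe fragmented total RNA and mapping with TopHat2, whereas the labels describe UV-fixed, lysed cells and the submitters' processing notes name fastp and HISAT2. Both name hg38 and MACS2, without releases. Neither source says if peaks were called against the input. The authors deposited 1 peak list per IP sample, which gives for each summit a fold enrichment, the ratio of its signal to the local background. Significance was deposited as a −log10 p-value and a −log10 q-value, beside a score derived from the latter, and the score went unused. Largest q values of 0.0491 and 0.0497 show that both lists were closed at 0.05. They hold no read numbers and no strand, so depth is unknown and no interval can be given. Fold enrichment depends on the local background and is not an m6A level.

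All chromosome names matched hg38 (44 and 53), and 0 peaks ran past an end. Genes came from GENCODE version 44. Coordinates are 1-based and sequences were read from hg38. Summits in an exon were assigned to that gene, protein-coding genes first. Regions, exon numbers and distances follow the MANE Select transcript, with a window of 200 nt around the first base of the stop codon. GGAC was searched on the gene's strand only, in the whole mRNA, in the whole peak and up to 50 nt either side of each summit. DRACH is given for the window of 50 nt around named summits only. Only peaks overlapping by at least 1 bp were called shared, and pairs are each other's best overlap.

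The genes, lists and classes were chosen with earlier results of these data known, so no test was run and counts are given beside those over all features. All 10 genes are named with every peak. Of the other pathway lists, the 10 genes with the largest geometric mean of the best exonic fold enrichment are named, with GAPDH, ALDOA, PGK1 and TPI1 and any gene of a list with 5 or fewer counted. PFKL, PFKM, PDK2, PDK4 and COL1A1 were added after their values were seen. Alternatives were other q, fold, overlap, motif and stop codon limits, peak midpoints, other transcripts, and each replicate alone. The scripts were tested on simulated data. Python 3.11.15, numpy 2.4.6, pandas 2.3.3, pysam 0.24.0 and matplotlib 3.10.9 were used.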

Additional observations from a re-analysis of the deposited data

How the results depend on the processing

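Requiring a fold enrichment of 5 or more, which by construction keeps fewer peaks, lowered the peaks in the 10 genes from 25 to 9 over both lists, the shared exonic peaks from 10 to 6, the summits with GGAC within 50 nt from 10 to 4, those near the stop codon from 6 to 3 and the other pathway genes with a peak in both replicates from 18 to 8, while the median fold enrichment of exonic peaks went from 3.66 to 6.398. It left 3 of the 10 genes with a peak in both lists, without SLC2A1, where 19.3% of all genes remained. A q of 1e-05 or less gave a median of 4.997. With each replicate left out in turn, the peaks ranged from 8 to 17, the median from 3.26 to 5.15, the GGAC count from 4 to 6, the stop codon count from 1 to 5, the other pathway genes from 18 to 26 and the genes with an exonic peak from 4 to 5, the fifth being PFKP in replicate 1. Requiring a summit in an exon of 1 gene only, an alternative chosen after seeing the data, kept 4 of the 10 genes and 14 of the 18 other pathway genes. The other 39 values for the main results moved within 1.5 times, or for the median within the standard deviation of the replicate medians. All 23 for the best fold enrichment of single genes stayed within the standard deviation of the replicate values, which says little. The q, fold and midpoint settings left each best value unchanged. With a replicate left out, a mean of both was set against the value of the replicate kept. SLC2A1 at a fold enrichment of 5 or more had no value and is not among the 23. No paired analysis was possible because the results come from no test. Depth limits every absence, since a gene without a peak may lie under the detection limit of these libraries, which was not given.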
